A study of Homo sapiens with 6 samples.

Results

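Expression of the de novo purine synthesis enzymes was examined in RNA-seq libraries of MDA-MB-231, an established human triple-negative breast cancer (TNBC) cell line. They were chosen by name, as the enzymes that build inosine monophosphate (IMP) and convert it to AMP or GMP: PPAT, GART, PFAS, PAICS, ADSL and ATIC on the common path, IMPDH1, IMPDH2 and GMPS on the GMP branch, and ADSS (ADSS2 in GENCODE) on the AMP branch. All 10 were among the 15651 genes of the table and among the 15246 that passed a filter on low values. The cells were treated with the vehicle DMSO (3 libraries) or with BRL-50481 (3 libraries), an inhibitor of the cAMP phosphodiesterase PDE7, and the comparison asks what the inhibitor changed in the transcriptome. For BRL-50481 the treatment text of the labels gives 50 μM for 72 h, whereas the treatment tag gives 5 μM and 48 h. The authors' paper gives 50 μM for 72 h in the figure legends on these data. The labels also give both oligo-dT selection and ribosomal RNA depletion for the libraries. The replicates are described as biological, and all come from this one cell line in culture with no other treatment or genetic change stated.

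De novo synthesis assembles the purine ring on phosphoribosyl pyrophosphate (PRPP) with atoms from glutamine, glycine, aspartate, bicarbonate and formyl-tetrahydrofolate. In human cells several of the enzymes carry more than 1 activity, and IMP is the branch point from which AMP and GMP are made. Proliferating cells, tumor cells among them, draw on this pathway for DNA, RNA and energy carriers, and the end products inhibit the first enzyme and the first enzymes of both branches.

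Values are normalized counts, that is, reads divided by the authors' size factor for the library, and they summed to between 30956797 and 32763957 per library over the genes of the table. If the smallest step between the values of a column is 1 read, this corresponds to 30750573 to 33446984 reads on these genes. In every library the values were whole multiples of that step, to within 8.15e-10 of it. The mesenchymal and basal markers of the line were detected in every library, with at least 6018 normalized counts each. Of the receptor and luminal markers, PGR did not exceed 7.75 normalized counts and CDH1 lay between 31.7 and 104.8. GATA3 lay between 166.5 and 299.0, and ERBB2 between 1606 and 1979. ESR1 was not found by its symbol among the genes of the table and was not tested. All 7 of the marker genes tested were higher in BRL-50481 (limma, adjusted p under 0.05), as were 28.9% of all genes tested. The part of these markers in the results was not tested. DMSO replicate 1 lay farthest from its group, with a residual SD of 0.141 on the log2 scale against 0.0791 to 0.119 in the other libraries.

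With BRL-50481, 6 of the 10 genes were lower and 0 were higher (limma on log2 of the normalized count plus 1, Benjamini-Hochberg adjusted p under 0.05 over all genes tested). Among all genes tested, 29.8% were lower and 28.9% were higher by the same rule. At an unadjusted p under 0.05 the counts were 6 lower and 1 higher, the latter being ADSL. The median log2 fold change of the 10 genes was −0.35, against 0.01 for all genes tested, whose 5th and 95th percentiles were −0.86 and 1.09. The groups did not overlap in 7 genes that were lower (32.3% of all genes) and in 1 that was higher (31.9% of all genes). By position in the pathway, 4 of the 6 common-path genes (median −0.35) and 2 of the 3 GMP-branch genes (median −0.41) were called lower, and the AMP-branch gene ADSS was not called. In bulk RNA, fewer cells of a kind and less RNA per cell cannot be told apart. Together the 10 genes took 0.179% to 0.181% of the normalized counts of the DMSO libraries and 0.148% to 0.151% of those of the BRL-50481 libraries.

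**Figure D1:**
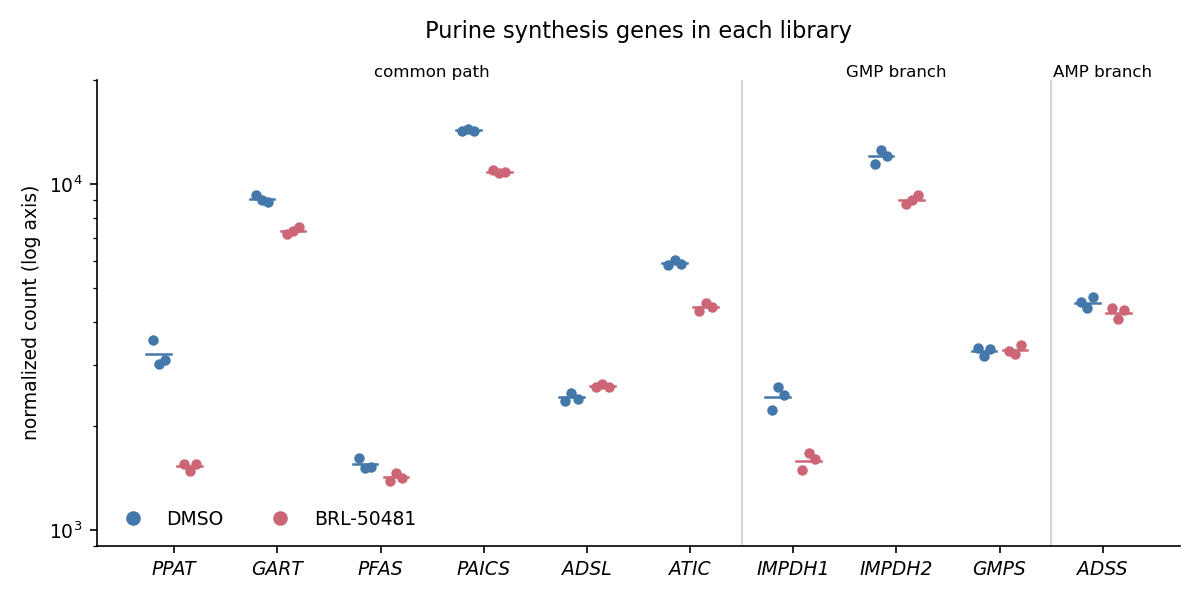
Normalized counts (log axis) of the 10 genes in each of the 3 DMSO (blue) and 3 BRL-50481 (red) libraries, in pathway order, with bars at the group means. PPAT shows the widest separation, while GMPS and ADSS overlap between the groups.

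PPAT, the amidotransferase of step 1 that commits PRPP to purine synthesis, fell the most of the 10. Its gene lies on chromosome 4 (56393362 to 56435615, minus strand, 11 exons, GENCODE on hg38). It had 3545, 3011 and 3105 normalized counts in DMSO replicates 1 to 3 and 1552, 1478 and 1552 in BRL-50481 replicates 1 to 3. The lowest DMSO library was thus well above the highest BRL-50481 library. The mean went from 3221 ± 285 to 1527 ± 43.0 (SD, n = 3 each), 47.4% of the DMSO level. The log2 fold change was −1.07 (SE 0.065, 95% CI −1.21 to −0.93, limma adjusted p = 3.41e-08). Of the 15246 genes tested, 436 (2.86%) had a lower log2 fold change. DMSO replicate 1 was the highest library, and without it the log2 fold change was −1.0.

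PAICS, which catalyzes steps 6 and 7 (carboxylation of the ring precursor and addition of aspartate), is the neighbor of PPAT on chromosome 4 (56435741 to 56464578, plus strand, 9 exons) and is transcribed away from it. It had 14249, 14419 and 14201 normalized counts in DMSO and 10978, 10752 and 10798 in BRL-50481. Replicates lay within a CV of 0.802% in DMSO and 1.1% in BRL-50481, and the groups were far apart. The log2 fold change was −0.40 (SE 0.042, 95% CI −0.49 to −0.31, adjusted p = 3.43e-06), 75.9% of the DMSO level. PPAT therefore fell further than its neighbor. Within a library, the log2 ratio of PPAT over PAICS was −2.01, −2.26 and −2.19 in DMSO and −2.82, −2.86 and −2.80 in BRL-50481. The groups did not overlap, and the difference was −0.67 (exact permutation test over the 6 libraries, two-sided, p = 0.1). With 3 against 3 libraries no smaller p is possible. That limit holds for all 4 ratios tested, whose Benjamini-Hochberg adjusted p was 0.1 as well.

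Because this pair of genes shares 1 intergenic region, their promoter windows are shown, together with that of ATIC, a called gene, and GMPS, a gene with no detected change. Each window runs from 250 bases before to 50 bases after the start, from RefSeq on GRCh38.p14, and capitals mark CACGTG, the E-box that MYC and related factors bind. The windows are PPAT at chr4:56435566-56435865 (minus strand), PAICS at chr4:56436010-56436309 (plus strand), ATIC at chr2:215311809-215312108 (plus strand) and GMPS at chr3:155870400-155870699 (plus strand).
PPAT: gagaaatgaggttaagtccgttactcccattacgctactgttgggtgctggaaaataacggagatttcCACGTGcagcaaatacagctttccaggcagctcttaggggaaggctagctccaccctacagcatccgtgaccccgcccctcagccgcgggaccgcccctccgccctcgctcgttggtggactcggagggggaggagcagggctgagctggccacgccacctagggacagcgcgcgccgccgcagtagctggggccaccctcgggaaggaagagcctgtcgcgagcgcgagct
PAICS: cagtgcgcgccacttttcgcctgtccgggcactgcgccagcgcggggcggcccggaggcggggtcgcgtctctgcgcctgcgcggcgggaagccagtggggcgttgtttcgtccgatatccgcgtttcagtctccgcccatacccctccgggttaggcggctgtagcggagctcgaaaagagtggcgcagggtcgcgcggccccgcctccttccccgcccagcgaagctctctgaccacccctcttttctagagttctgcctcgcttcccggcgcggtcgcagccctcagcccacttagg
ATIC: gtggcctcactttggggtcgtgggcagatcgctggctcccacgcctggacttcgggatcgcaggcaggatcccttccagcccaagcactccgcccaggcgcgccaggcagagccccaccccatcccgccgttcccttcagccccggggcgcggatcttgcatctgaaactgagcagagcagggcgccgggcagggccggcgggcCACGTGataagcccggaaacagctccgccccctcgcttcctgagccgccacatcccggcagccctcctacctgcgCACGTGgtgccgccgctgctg
GMPS: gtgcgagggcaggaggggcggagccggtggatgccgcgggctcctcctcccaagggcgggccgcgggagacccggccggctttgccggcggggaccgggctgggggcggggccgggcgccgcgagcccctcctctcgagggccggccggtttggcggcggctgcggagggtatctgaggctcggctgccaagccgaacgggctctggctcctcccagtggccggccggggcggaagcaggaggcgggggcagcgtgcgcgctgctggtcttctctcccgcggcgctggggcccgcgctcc
The E-box began at position −182 from the start in PPAT and at positions −46 and 29 in ATIC, and these letters are absent from the PAICS and GMPS windows shown. A window was found for 8 of the 10 genes, all but ADSL and IMPDH2. In the windows at the canonical start, CACGTG was in 2 of 8, against 7.26% of the 35116 promoter windows of all genes. The called genes GART, IMPDH1 and PAICS had none there, and neither had the uncalled genes GMPS, ADSS and PFAS. TGACG, the core of the cAMP response element, was in 1 of 8 (PFAS, at −163 and −9; 24.6% of all windows). GGGCGG, a GC box bound by SP1, was in 8 of 8 (45% of all windows). The shares of all windows count every RefSeq start, whereas each member is counted at its canonical start only. Other starts of GART hold TGACG (at 5 or 8) and no GGGCGG, and a start of PAICS (chr4:56410257-56410556) holds none of these motifs. Both strands were searched, CACGTG reads the same on both, and no 2 of these motifs overlapped in a member's window. Matches are descriptions of sequence only. The canonical starts of PPAT and PAICS lie 645 bases apart, and another RefSeq start of PAICS gives a window (chr4:56435502-56435801) that overlaps the PPAT window and holds the same E-box.

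GART carries steps 2, 3 and 5, among them the first of the 2 formyl transfers of the pathway, and lies on chromosome 21 (33503931 to 33543491, minus strand, 22 exons). It had 9308, 9012 and 8886 normalized counts in DMSO and 7180, 7335 and 7499 in BRL-50481, with no overlap between the groups. This was a log2 fold change of −0.31 (SE 0.045, 95% CI −0.40 to −0.21, adjusted p = 6.6e-05), the smallest of the 6 called falls. The next enzyme, PFAS, uses glutamine in step 4 and is encoded on chromosome 17 (8247618 to 8270491, plus strand, 28 exons). Its values were 1612, 1509 and 1520 in DMSO and 1382, 1462 and 1415 in BRL-50481. All 3 treated libraries were below the DMSO libraries, by as little as 47 normalized counts between the nearest of them, and the change did not pass the threshold (log2 fold change −0.12, SE 0.058, 95% CI −0.25 to 0.0019, adjusted p = 0.0841).

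ADSL, the lyase of step 8 that also completes AMP synthesis, lies on chromosome 22 (40346461 to 40390463, plus strand, 13 exons). It was the only one of the 10 with higher values in every treated library, at 2362, 2493 and 2393 normalized counts in DMSO and 2588, 2637 and 2594 in BRL-50481. The log2 fold change of 0.11 (SE 0.051, 95% CI 5.07e-05 to 0.22) did not pass over all genes (adjusted p = 0.0796). It was called higher when libraries were quantile normalized (0.17, adjusted p = 0.0113) or centred on their medians (0.14, adjusted p = 0.0317), and was 0.01 (adjusted p = 0.815) after a correction for transcript length and GC content that was added after the data had been seen.

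ATIC performs steps 9 and 10, the second formyl transfer and the ring closure to IMP. It lies on chromosome 2 (215311956 to 215349773, plus strand, 16 exons), and its promoter window is printed above. The DMSO libraries had 5835, 6022 and 5863 normalized counts and the BRL-50481 libraries 4300, 4543 and 4409. The groups did not overlap, with a log2 fold change of −0.42 (SE 0.047, 95% CI −0.52 to −0.32, adjusted p = 5.8e-06). On the common path, the called genes thus covered the steps of PPAT, GART, PAICS and ATIC, and the steps of PFAS and ADSL were not called in either direction.

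**Figure D2:**
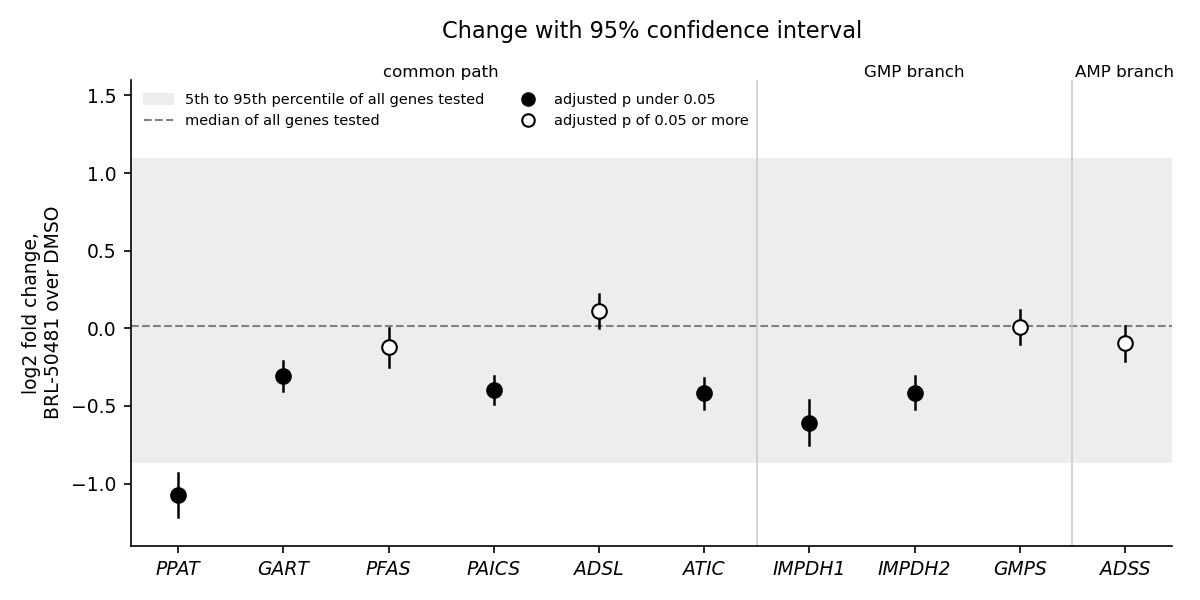
Log2 fold change of BRL-50481 over DMSO for each gene (points), with 95% confidence intervals from limma (lines), against the median of all genes tested (dashed) and their 5th to 95th percentile (gray). Filled points passed an adjusted p of 0.05, and PPAT at −1.07 alone lies outside the gray band.

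On the GMP branch, IMP is first oxidized by IMP dehydrogenase, of which human cells have a pair of isozymes. IMPDH1 lies on chromosome 7 (128392277 to 128409986, minus strand, 17 exons), with 2222, 2583 and 2460 normalized counts in DMSO and 1490, 1666 and 1604 in BRL-50481. All treated libraries were lower, with a log2 fold change of −0.61 (SE 0.067, 95% CI −0.75 to −0.46, adjusted p = 5.72e-06), 65.5% of the DMSO level. IMPDH2, the isozyme that predominates in proliferating cells, lies on chromosome 3 (49024325 to 49029447, minus strand, 14 exons). It had 11441, 12579 and 12020 normalized counts in DMSO and 8766, 8983 and 9274 in BRL-50481, again without overlap (log2 fold change −0.41, SE 0.049, 95% CI −0.52 to −0.31, adjusted p = 9.66e-06). Both isozymes thus fell.

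Per kb of transcript, IMPDH1 made up 10.9% to 11.5% of the summed level of both isozymes in DMSO and 9.7% to 10.5% in BRL-50481. The log2 ratio of IMPDH1 over IMPDH2 in normalized counts was −2.36, −2.28 and −2.29 in DMSO and −2.56, −2.43 and −2.53 in BRL-50481. The difference of −0.19 had no overlap between groups (exact permutation test, p = 0.1). It was between −0.23 and −0.17 when any 1 library was left out. The exact permutation p was then 0.2 without DMSO replicate 2 or 3, and 0.1 without any other library.

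GMPS, the glutamine-dependent synthetase that completes GMP, lies on chromosome 3 (155870650 to 155944020, plus strand, 16 exons). It held 3347, 3192 and 3330 normalized counts in DMSO and 3292, 3218 and 3426 in BRL-50481. The groups overlapped, and the log2 fold change was 0.0096 (SE 0.050, 95% CI −0.099 to 0.12, adjusted p = 0.884). The interval excludes a fall as large as that of IMPDH2. The GMPS over IMPDH2 log2 ratio accordingly went from −1.77, −1.98 and −1.85 to −1.41, −1.48 and −1.44, a difference of 0.42 with no overlap (exact permutation test, p = 0.1). After correction for length and GC content, GMPS, which has the longest transcript of the 10 (8631 bases), was called lower (log2 fold change −0.18, adjusted p = 0.00299). IMPDH2 had −0.39 in that setting, so the 2 genes lay closer together than in the main fit. None of the ratios between members was recomputed with this correction.

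The AMP branch starts with adenylosuccinate synthase, ADSS (ADSS2 in GENCODE), which adds aspartate to IMP. It lies on chromosome 1 (244408494 to 244451909, minus strand, 13 exons) and had 4552, 4371 and 4706 normalized counts in DMSO and 4380, 4059 and 4310 in BRL-50481. BRL-50481 replicate 1 lay just above DMSO replicate 2, so the groups overlapped. The change did not pass the threshold (log2 fold change −0.096, SE 0.052, 95% CI −0.21 to 0.015, adjusted p = 0.126), whereas it passed after correction for length and GC content (−0.13, adjusted p = 0.00267). Of the 2 enzymes that lead from IMP to AMP, ADSS and ADSL, limma called 0, and 1 (ADSL) had an unadjusted p under 0.05.

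IMPDH2 and ADSS take the same substrate into opposite branches. The log2 ratio of IMPDH2 over ADSS was 1.33, 1.52 and 1.35 in DMSO and 1.00, 1.15 and 1.11 in BRL-50481. It was lower in all treated libraries, by −0.32 (exact permutation test, p = 0.1).

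**Figure D3:**
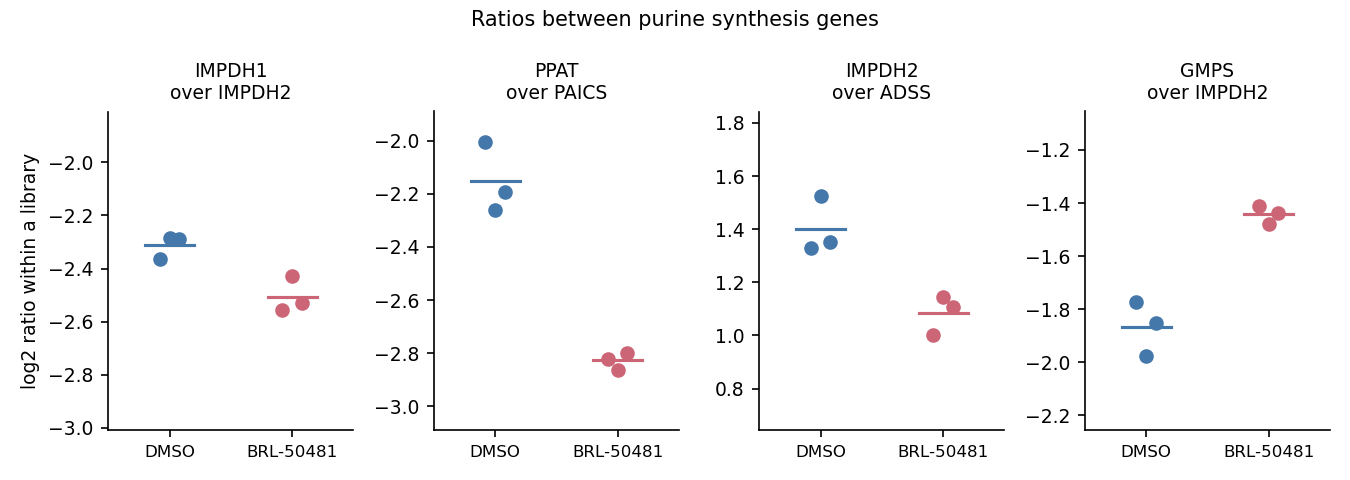
Log2 ratio of normalized counts within each library for IMPDH1 over IMPDH2, PPAT over PAICS, IMPDH2 over ADSS and GMPS over IMPDH2, in DMSO (blue) and BRL-50481 (red), with bars at the means; each vertical axis spans the same range around its own mean. The groups do not overlap in any of the 4 ratios.

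Levels can be compared between genes only per length, here as normalized counts per kb of the canonical GENCODE transcript. In DMSO, IMPDH2 was the highest at 7276 ± 345 (SD, n = 3) per kb, followed by ATIC at 2995 ± 51.2, GART at 2733 ± 65.3, PAICS at 2243 ± 18.0 and ADSS at 1778 ± 65.6. IMPDH1 (927 ± 70.4) and PPAT (875 ± 77.4) came next and overlapped, and ADSL (554 ± 15.7), GMPS (381 ± 9.81) and PFAS (288 ± 10.6) were the lowest. The first enzyme of the pathway was therefore the seventh of the 10 by level. In BRL-50481, PPAT (415 ± 11.7) came below ADSL (598 ± 6.12), and ATIC (2240 ± 61.7) overlapped with GART (2212 ± 48.1), PAICS (1702 ± 18.8) with ADSS (1663 ± 66.1) and IMPDH1 (608 ± 34.2) with ADSL. The order rests on which transcript is canonical, and the transcripts used were 1651 to 8631 bases long.

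The calls for PPAT, GART, PAICS, ATIC, IMPDH1 and IMPDH2 held in all 15 alternative settings that were tried. With the length and GC correction 9 of the 10 genes were lower, since PFAS (−0.19, adjusted p = 0.00114), GMPS and ADSS then passed too. Over all genes, the correction raised the share called lower from 29.8% to 37.3% (5510 of 14763 genes with a length) and moved the median log2 fold change from 0.0148 to −0.0372. Reads may be shared with near-identical copies: GENCODE lists 10 pseudogenes of IMPDH1, 7 of PAICS, 2 of PPAT and 1 of GMPS. ADSL, IMPDH2 and ADSS overlap, on the same strand, another annotated gene that has no symbol.

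**Figure D4:**
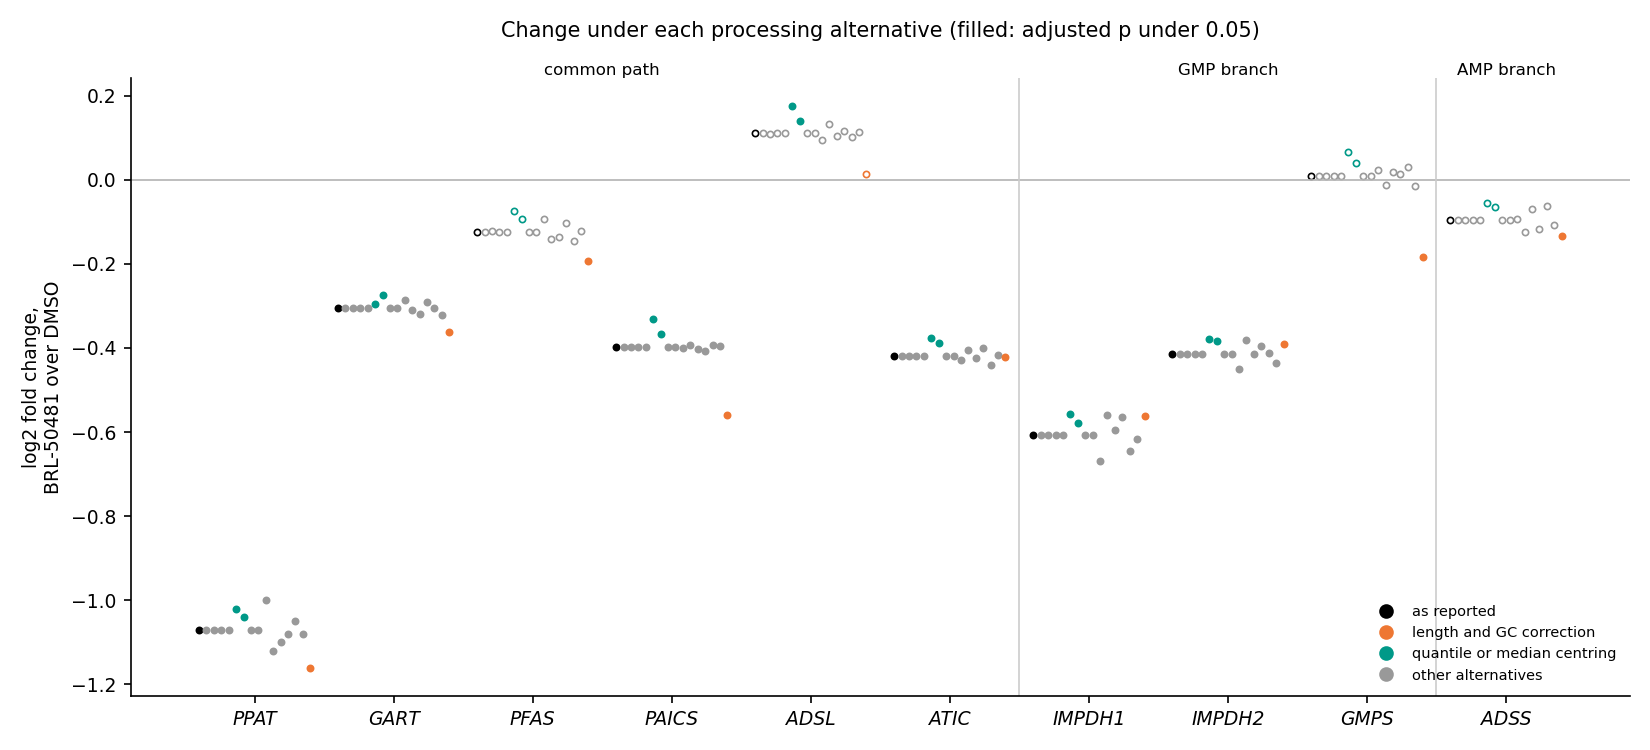
Log2 fold change of each gene as reported (black) and under the 15 alternatives, in the order they were run, with filled points at an adjusted p under 0.05. PPAT, GART, PAICS, ATIC, IMPDH1 and IMPDH2 are filled throughout, and GMPS lies on both sides of 0.

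The pathway is fed by PRPP, made by the PRPP synthetases. Of 4 genes tested, 2 were lower and 0 higher (median log2 fold change −0.26, 2 lower and 0 higher at an unadjusted p under 0.05). Over all genes tested, 29.8% were called lower and 28.9% higher. The counts of this list and of each list below are to be read beside these shares, and no list was tested as a set. PRPS2, a synthetase, had 3131, 3130 and 3167 normalized counts in DMSO and 2130, 2005 and 2037 in BRL-50481, a log2 fold change of −0.61 (SE 0.051, adjusted p = 4.77e-07). PRPS1 fell by 0.43 on the log2 scale (adjusted p = 4.17e-05). The associated proteins PRPSAP1 (0.055, adjusted p = 0.416) and PRPSAP2 (−0.086, adjusted p = 0.231) did not pass.

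Salvage, which returns free bases and nucleosides to nucleotides, had 3 of 5 genes lower and 0 higher in limma (median −0.22, with 3 lower and 0 higher at an unadjusted p under 0.05). MTAP, also on this list, was not found by its symbol among the genes of the table and was not tested. HPRT1, which recovers hypoxanthine and guanine on PRPP, had 3671, 3931 and 3951 normalized counts in DMSO and 2548, 2391 and 2498 in BRL-50481 (log2 fold change −0.63, SE 0.053, adjusted p = 4.88e-07). APRT, its counterpart for adenine, fell by 0.46 (adjusted p = 0.000732). DCK, a deoxynucleoside kinase, fell by 0.22 (adjusted p = 0.0132) and lost the call without a trend in limma (adjusted p = 0.0579) or without BRL-50481 replicate 1 (0.0515) or 2 (0.0797). Adenosine kinase, ADK, had a log2 fold change of 0.085 that did not pass (adjusted p = 0.145).

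Interconversion of the nucleotides was mixed, with 7 of 16 genes lower and 4 higher (median −0.13). AMPD3, which deaminates AMP back to IMP, had 966, 866 and 975 normalized counts in DMSO and 1354, 1500 and 1349 in BRL-50481, a log2 fold change of 0.58 (adjusted p = 1.29e-05). AK3, a mitochondrial GTP:AMP phosphotransferase, fell by 0.58 (adjusted p = 3.79e-06). The muscle-type paralog of ADSS (ADSS1, listed as ADSSL1) had only 28.8, 41.1 and 44.9 normalized counts in DMSO and 22.1, 26.2 and 23.3 in BRL-50481. Its call (−0.64, adjusted p = 0.0404) was lost without any 1 of 5 libraries (adjusted p from 0.0578 to 0.142), all but DMSO replicate 1. GMPR, which converts GMP to IMP, fell by 0.39 (adjusted p = 0.000146), whereas its paralog GMPR2 rose by 0.24 (adjusted p = 0.00392).

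Among genes of breakdown, 1 of 5 was lower and 2 were higher (median 0.10). PNP, which splits inosine and guanosine, had 3597, 3851 and 3675 normalized counts in DMSO and 1925, 2081 and 2052 in BRL-50481 (log2 fold change −0.88, SE 0.054, adjusted p = 3.86e-08). NT5E, the cell-surface nucleotidase CD73, rose by 0.44 (adjusted p = 1.9e-06). XDH, which makes uric acid, was at 36.2 to 76.5 normalized counts, with a log2 fold change of 0.65 (adjusted p = 0.0163) that lost the call without BRL-50481 replicate 1 (adjusted p = 0.09) or with quantile normalization (0.0771).

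The genes that supply formyl groups, glutamine and aspartate split in both directions, with 5 of 13 lower and 6 higher (median −0.066). SHMT2, the mitochondrial serine hydroxymethyltransferase, had 9029, 9511 and 9333 normalized counts in DMSO and 10861, 11602 and 11252 in BRL-50481 (log2 fold change 0.27, SE 0.046, adjusted p = 0.000199). GLUL, which makes glutamine, fell by 0.61 (adjusted p = 4.66e-07). ALDH1L2, a mitochondrial formyl-tetrahydrofolate dehydrogenase, had the largest rise of the list, at 16.9, 3.92 and 11.2 normalized counts in DMSO and 36.2, 52.4 and 46.5 in BRL-50481 (log2 fold change 2.15, adjusted p = 0.000571). The aspartate aminotransferases parted, as the cytosolic GOT1 rose by 0.49 (adjusted p = 9.38e-06) and the mitochondrial GOT2 fell by 0.54 (adjusted p = 4.09e-07).

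Of 4 transcription factors known at purine gene promoters, 3 were lower and 1 was higher. MYC had 26024, 28761 and 28138 normalized counts in DMSO and 12098, 12446 and 12330 in BRL-50481 (log2 fold change −1.17, SE 0.048, adjusted p = 1.63e-09), without overlap. ATF4 (−0.35, adjusted p = 8.41e-05) and NRF1 (−0.28, adjusted p = 0.00391) were lower as well. SP1 was called higher (0.18, adjusted p = 0.0499), but its groups overlapped and the call was lost in 8 of the 15 alternatives, with an adjusted p of up to 0.917. Whether any of these factors bears on the purine genes was not tested.

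**Figure D5:**
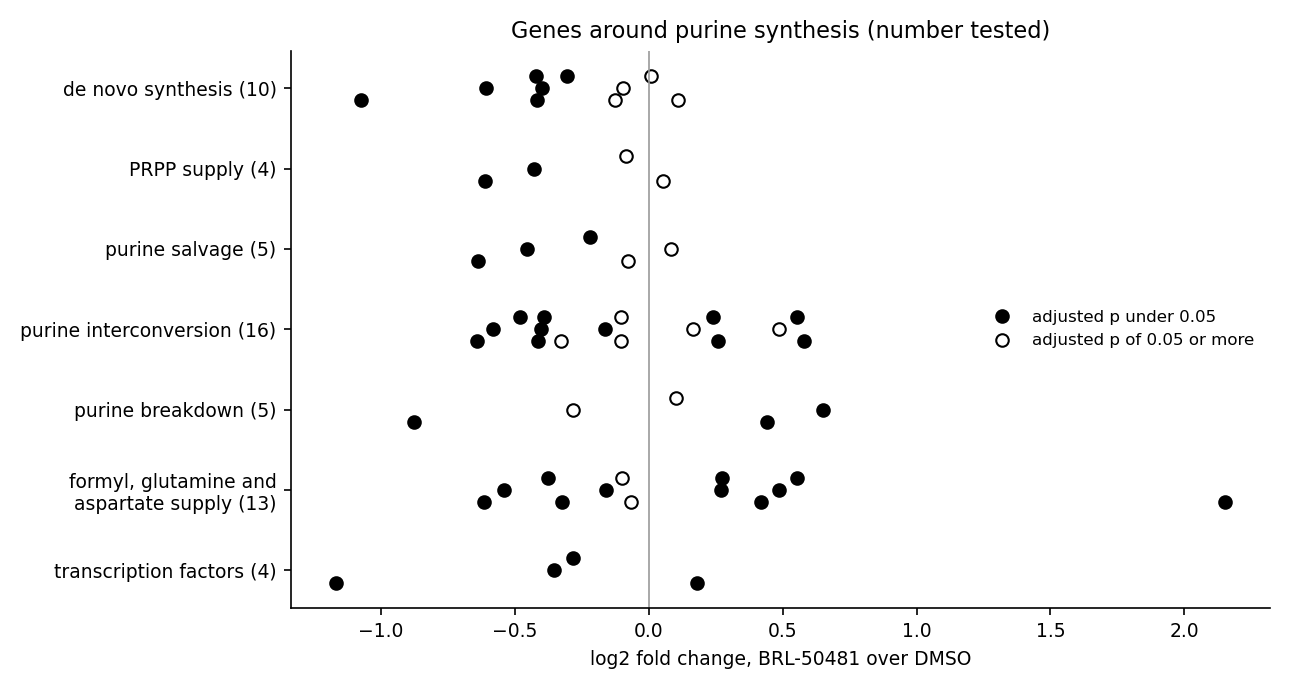
Log2 fold change of BRL-50481 over DMSO for the 10 de novo genes and for the genes tested in each of the 6 other lists (1 point per gene, filled at an adjusted p under 0.05). The PRPP supply and salvage lists hold 5 called genes, all of them lower, and the supply, interconversion and breakdown lists spread to both sides of 0. Over all genes tested, 29.8% were called lower and 28.9% higher.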

How the data were processed

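RNA of DMSO- and BRL-50481-treated MDA-MB-231 cells (3 libraries each, grouped by their titles) was sequenced, and 1 table was deposited. According to the methods and processing notes, the authors aligned reads to hg38 with STAR 2.7.1a, counted them per gene with HTSeq in reverse-strand mode on the UCSC annotation, removed low genes, and normalized with DESeq2 1.28. The deposited signal is the read count divided by the library's size factor. The deposited log2 fold change, its standard error, the test score and the p-value with its adjustment are the authors' own comparison, and the deposited mean signal is theirs too. None of these was used.

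The comparison used limma 3.58.1 in R 4.3.3, with lmFit and a trended eBayes, on log2(normalized count + 1), since a count model needs raw reads. The group was its single term. Fold changes are on that scale. Genes with at least 4 normalized counts in at least 3 libraries were tested (405 of 15651 removed), with Benjamini-Hochberg adjustment and a threshold of 0.05. Reads per library were estimated by taking the smallest step in each column as 1 read. Ratios within a library were tested with the two-sided exact permutation test.

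Lengths, GC content and positions came from canonical GENCODE release 44 transcripts, matched for 96.7% of genes. Promoter windows came from RefSeq. The members and lists were chosen with earlier results of these data known. Named were all 10 members, and of each list the called genes with the largest rise and fall, the gene with the highest mean normalized count (not divided by length) and genes needed for the pathway's order. A gene that this rule names is not reported here. Also named were the 5 other genes of mean normalized count 100 or more closest in profile to the members. PRPS1, PRPSAP1, PRPSAP2, APRT, DCK, GMPR, GMPR2, GOT1 and GOT2 were picked with their values known. The settings varied were the pseudocount (0.5 or 4), the filter (none, or a mean of at least 20), the scaling (quantile normalization or median centring) and the trend, with a replicate block, the omission of each library and, added after the data had been seen, a loess correction (span 0.5) for length and GC content. Same-numbered libraries had residual correlations of 0.121, 0.104 and 0.0514, and a number in the labels marks no shared culture or day, so the numbers were not treated as pairs.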

Additional observations from a re-analysis of the deposited data

How the results depend on the processing

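The 6 falls of PPAT, GART, PAICS, ATIC, IMPDH1 and IMPDH2 held in all 15 alternatives. The count of members called higher went from 0 to 1 (ADSL) with quantile normalization and with median centring. The median log2 fold change of the members, −0.35, was −0.313 with quantile normalization, −0.322 with median centring and −0.376 with the length and GC correction added after the data had been seen. That of the common path was −0.313, −0.322 and −0.392 in the same settings. GMPS changed direction, to −0.0118 without DMSO replicate 2, −0.015 without BRL-50481 replicate 3 and −0.183 with the length and GC correction, as did PRPSAP1 (−0.0014) with that correction. The cause was not tested. When 1 library was left out, PPAT ranged from −1.12 to −1.0, GMPS from −0.015 to 0.0302 and ADSL from 0.0935 to 0.132. With the replicate block, 4589 genes were lower and 4440 higher, against 4546 and 4400 without it, and it changed no member's call (6 lower, 0 higher). The libraries share only a number. Planned count tests on recovered reads were not run, so how they would call these genes was not tested. No member had under 1382 normalized counts in any library. The 3 libraries per group limit the smallest exact p to 0.1.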

Other observations

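The genes whose log2 values over the 6 libraries were most like the mean standardized profile of the 10 purine genes were ZNF850 (Pearson r = 0.999), INPP5B (0.999), ZNF696 (0.998), CCAR2 (0.998) and AGPAT5 (0.998), among 11445 candidates whose mean was 100 or more normalized counts. The points are 6 libraries in 2 treatment groups, and 1628 candidates reached r of at least 0.95. ZNF696, a zinc finger gene, had 896, 839 and 881 normalized counts in DMSO and 459, 437 and 500 in BRL-50481. INPP5B, a phosphoinositide phosphatase, had 610, 570 and 589 in DMSO and 412, 411 and 443 in BRL-50481.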
